A study of Homo sapiens with 9 samples.

Results

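The snoRNA host lncRNAs are long noncoding RNAs whose introns carry small nucleolar RNAs (snoRNAs). They were taken from the gene table by name: every numbered SNHG (small nucleolar RNA host gene) symbol, together with GAS5, ZFAS1, DANCR and EPB41L4A-AS1. The rule found 32 genes among 60605 rows, of which 30 averaged 0.1 FPKM or more (fragments per kilobase of exon, scaled to library depth) over all libraries and entered the fit. SNHG18 and SNHG28 fell below that level, and 26 members averaged 1 FPKM or more.

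The libraries came from TE13, an established esophageal squamous cell carcinoma (ESCC) line, and poly(A)+ RNA was sequenced. Cells received control siRNA or 1 of 2 siRNAs, siRNA.1 and siRNA.2, against the lncRNA PARylator (LINC00885), with 3 libraries in each of the 3 groups. No other treatment was labelled, and p-values measure the spread between the 3 libraries of a group. The study calls these libraries experimental repeats, and whether they came from separate cultures is not given in the sources used here. The same 3 control libraries served both comparisons with control.

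The libraries held 15337917 to 22559998 counts. LINC00885, the targeted lncRNA, had 6, 7 and 12 counts with control siRNA, 4, 5 and 2 with siRNA.1, and 2, 0 and 4 with siRNA.2. At these few counts its fall was not called with siRNA.1 (log2 fold change −1.21, edgeR adjusted p = 0.376) or siRNA.2 (−2.33, adjusted p = 0.0659). All 10 squamous and epithelial markers reached 1 FPKM with control siRNA. Of 9 blood cell markers none reached 1 FPKM with control siRNA, and MS4A1 and HBB were at 0 in every library. Their summed level was 0.62 to 1.39 FPKM with control, 4.16 to 4.67 after siRNA.1, and 3.89 to 4.95 after siRNA.2, and LYZ made up most of it after either PARylator siRNA. Fibroblast markers summed to 2.23 to 2.49, 1.46 to 1.64 and 1.50 to 1.72 FPKM, and endothelial markers to 1.20 to 1.56, 0.63 to 0.95 and 0.48 to 0.55. Mitochondrially encoded genes took 7.46 to 7.66% of counts with control siRNA, 4.99 to 5.06% after siRNA.1, and 5.54 to 5.56% after siRNA.2. The part of these markers and of the mitochondrial share in the results that follow was not tested.

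Box C/D snoRNAs guide 2′-O-methylation and H/ACA snoRNAs guide pseudouridylation of ribosomal RNA, and the related Cajal body RNAs (scaRNAs) act on spliceosomal RNA. Most are cut out of introns, so that making the snoRNA also makes a spliced host RNA. Many host RNAs have short reading frames, are engaged by ribosomes and are degraded by nonsense-mediated decay (NMD), and several start with a 5′ terminal oligopyrimidine (TOP) tract, as the messages of ribosomal proteins do. Their level therefore reflects both transcription and decay, which poly(A)+ RNA-seq cannot separate.

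The start sites of the abundant hosts differed in the TOP feature. A TOP run was defined as a C followed by at least 4 pyrimidines, read on the gene's own strand. The RefSeq promoter table (GRCh38.p14) held 28 of the 32 members. The sequences below are shown for hosts with a mean of at least 10 FPKM and run from 10 bases before to 20 bases into the RefSeq start, 5′ to 3′. Capitals mark the run, and SNHG1 and SNHG3 are given as hosts without a run within 10 bases of the start.
ZFAS1 (chr20:49278632-49278661, + strand): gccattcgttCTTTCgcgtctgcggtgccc
SNHG19 (chr16:2155339-2155368, − strand): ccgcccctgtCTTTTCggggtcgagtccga
SNHG32 (chr6:31834906-31834935, + strand): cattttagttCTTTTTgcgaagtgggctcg
SNHG4 (chr5:139274091-139274120, + strand): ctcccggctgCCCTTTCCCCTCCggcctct
SNHG16 (chr17:76557754-76557783, + strand): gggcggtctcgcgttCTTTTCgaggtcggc
SNHG7 (chr9:136728165-136728194, − strand): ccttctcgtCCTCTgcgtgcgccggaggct
SNHG1 (chr11:62855866-62855895, − strand): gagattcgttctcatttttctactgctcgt
SNHG3 (chr1:28505933-28505962, + strand): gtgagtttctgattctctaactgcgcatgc

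The start chosen for a gene matters here. The RefSeq window of GAS5 held no run, whereas its canonical transcript in GENCODE 44 began with one. That start is shown from its first base for GAS5, with the same for SNHG29, whose first exon is shorter than the stretch printed.
GAS5 (chr1:173867960-173867989, − strand): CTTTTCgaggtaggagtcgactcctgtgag
SNHG29 (chromosome 17, + strand, spliced): CTTTTCattcccgttgttatggagggccac

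A run lay within 10 bases of the RefSeq start in 17 of 28 members (60.7%), against 33.3% of 27305 promoters in the table, 83.8% of 68 promoters of ribosomal protein genes and 31.1% of 1578 promoters of numbered LINC lncRNAs. A run that began exactly at the RefSeq start was present in 7 of 28 members (25.0%), 4.04% of all promoters and 64.7% of ribosomal protein genes. Over the first 10 bases of GENCODE 44 canonical transcripts, a run began in 7 of 32 members (21.9%), 17.5% of 62700 genes and 86.0% of 86 ribosomal protein genes. A run at the very first base of the canonical transcript was present in 4 of 32 members (12.5%), 2.75% of all genes and 70.9% of ribosomal protein genes. The members' share thus stood above that of all genes in both RefSeq measures and at the first base of canonical transcripts, and nearer to it over the first 10 bases, and no difference was tested. A match of letters describes the sequence and shows no regulation.

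The 32 hosts ranged over more than 3 orders of magnitude with control siRNA only when SNHG28, at 0.02 FPKM and outside the fit, is counted. SNHG29, host of SNORD49A, SNORD49B and SNORD65, was highest at 42.9 ± 1.50 FPKM (mean ± SD, n = 3 here and below). GAS5, named for its accumulation in growth-arrested cells, followed at 40.8 ± 1.85 FPKM and SNHG6, host of SNORD87, at 35.8 ± 4.11. In their control libraries SNHG29 overlapped with GAS5 and GAS5 with SNHG6, whereas SNHG29 lay above SNHG6. SNHG32, host of SNORD48 and SNORD52, stood at 21.0 ± 2.34 FPKM. SNHG1, which carries a cluster of box C/D snoRNAs, stood at 20.6 ± 0.406 FPKM. SNHG19, host of SNORD60, stood at 17.4 ± 3.01 FPKM. SNHG32 lay below SNHG6 in every control library, and SNHG32, SNHG1 and SNHG19 overlapped with each neighbour in this order. At the other end of the tested hosts, SNHG14, SNHG22, SNHG27 and SNHG31 had control means of 0.12 to 0.16 FPKM. Of the 31 neighbouring pairs in this order, 9 had control libraries that did not overlap.

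Among 7109 annotated lncRNAs above 0 FPKM with control siRNA, 7 of the 20 most abundant and 14 of the 100 most abundant were members. FPKM here divides by the union of all annotated exons, which for these genes includes many retained introns. Per kilobase of the canonical transcript, and assuming that all counts came from it, SNHG29 stood at 694 ± 24.2 FPKM, GAS5 at 257 ± 11.7 and SNHG16, host of SNORD1A to SNORD1C, at 115 ± 8.78. SNHG16 moved from rank 10 to rank 3 on that scale, and SNHG6 from rank 3 to rank 8. The order within the group thus depended on the length used, whereas comparisons of 1 host between groups did not.

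**Figure D1:**
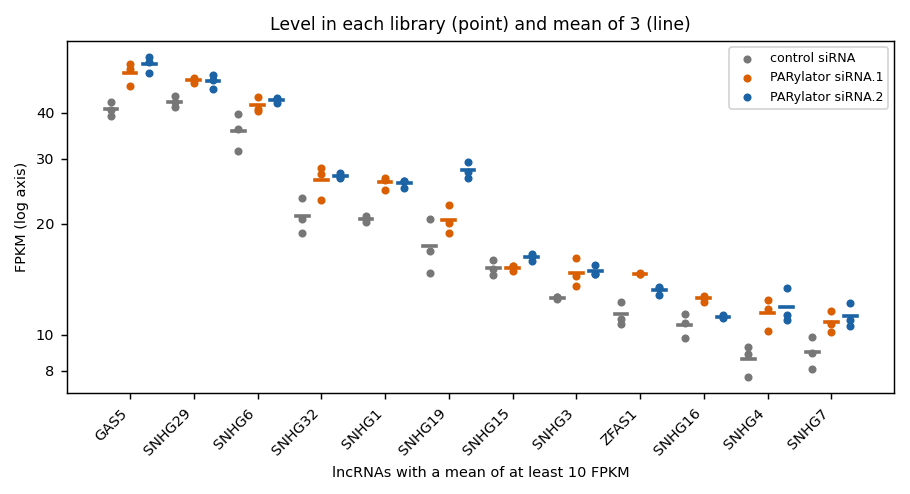
Level in FPKM (log axis) of the 12 hosts averaging 10 FPKM or more, with each library as a point and the mean of 3 libraries as a line, for control siRNA and both PARylator siRNAs. GAS5 and SNHG29 rose from control means of 40.8 and 42.9 FPKM with either siRNA, SNHG15 stayed close to its control mean of 15.2 with siRNA.1, and the 3 siRNA.2 libraries of SNHG19 lay above all others.

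Most of the expressed snoRNA host lncRNAs were higher after PARylator knockdown, by modest amounts. With siRNA.1, 17 of 30 tested members rose (edgeR quasi-likelihood test, adjusted p below 0.05), where 15.0% of all 21395 genes tested rose, and 1 fell, where 15.2% of all genes fell. With siRNA.2, 18 of 30 rose, where 15.8% of all genes rose, and none fell, where 15.1% of all genes fell. At an unadjusted p below 0.05, siRNA.2 gave 19 higher and 0 lower, and DESeq2 and limma on log2(FPKM + 0.1) called 17 and 16 higher and 0 lower. The members' median log2 fold change was 0.26 with siRNA.1, beside −0.00056 over all genes, and 0.32 with siRNA.2, beside 0.004. All members called higher averaged 1 FPKM or more, where calls are more frequent. They were 17 of 26 such members (65.4%) with siRNA.1 and 18 of 26 (69.2%) with siRNA.2. In a fit of the 12532 genes at that level, 2866 rose and 2953 fell with siRNA.1, and 2927 rose and 2986 fell with siRNA.2.

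The changes were small in size. No member reached a log2 fold change of 1 in either direction together with an adjusted p below 0.05. Counts summed over all members were 1256 ± 36.1 CPM (counts scaled to library totals) with control siRNA, 1501 ± 27.6 with siRNA.1 (1.20-fold) and 1522 ± 32.9 with siRNA.2 (1.21-fold). GAS5 and SNHG29 made up 38.9 to 41.0% of these counts in every library. All 3 siRNA.1 libraries lay above all 3 control libraries in FPKM for 16 of 30 tested members (20.7% of all genes) and below them for 1 (17.0% of all genes). With siRNA.2 this held for 19 members above (21.1% of all genes) and 0 below (18.5% of all genes).

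**Figure D2:**
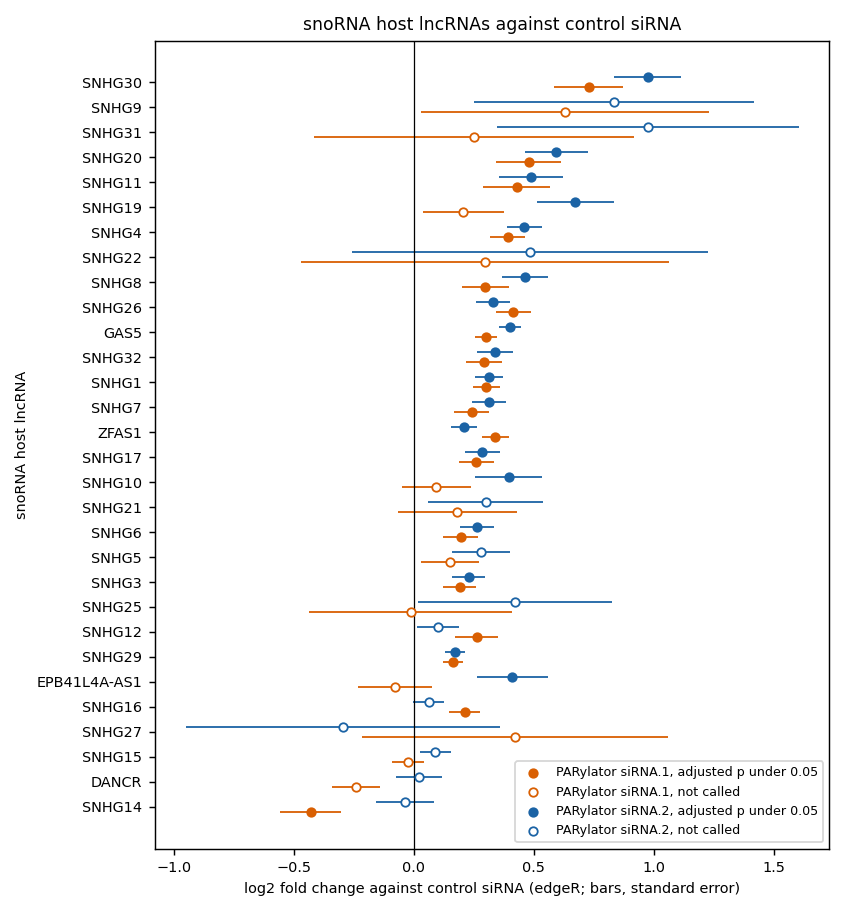
Log2 fold change (edgeR, bars show the standard error) of the 30 tested hosts against control siRNA, with siRNA.1 in orange and siRNA.2 in blue, filled where the adjusted p was below 0.05. SNHG30 lies farthest to the right among called hosts at 0.73 and 0.98, most called hosts lie between 0.16 and 0.67, and SNHG14 with siRNA.1 is the sole filled point left of 0.

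The box C/D hosts included the largest called change. Of 11 tested, 8 (72.7%) rose and 1 (9.09%) fell with siRNA.1, and 8 (72.7%) rose and 0 fell with siRNA.2. The medians were 0.21 and 0.28. Of all genes, 15.0% rose and 15.2% fell with siRNA.1, and 15.8% and 15.1% with siRNA.2. GAS5, inside which no snoRNA row was named, and SNHG12 and SNHG25, which hold both kinds, were counted in neither this class nor the H/ACA class. SNHG30, host of SNORD7, had 4.01, 4.43 and 4.73 FPKM with control siRNA, 6.96, 7.79 and 7.58 with siRNA.1, and 8.30, 8.98 and 8.87 with siRNA.2. The groups did not overlap, and SNHG30 rose 1.66-fold with siRNA.1 (log2 fold change 0.73 ± 0.14 SE, edgeR adjusted p = 3.8e-06) and 1.97-fold with siRNA.2 (0.98 ± 0.14, adjusted p = 5.39e-11).

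SNHG26, host of SNORD93, had 7.55, 7.53 and 6.76 FPKM with control siRNA, 10.2, 9.99 and 9.47 with siRNA.1, and 9.19, 9.10 and 9.36 with siRNA.2. Every knockdown library was above every control library. It rose by a log2 fold change of 0.42 ± 0.07 with siRNA.1 (edgeR adjusted p = 6.32e-08) and 0.33 ± 0.07 with siRNA.2 (adjusted p = 1.99e-05).

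GAS5 had 39.0, 42.7 and 40.6 FPKM with control siRNA, 54.1, 47.1 and 52.3 with siRNA.1, and 51.2, 55.0 and 56.7 with siRNA.2. All 6 knockdown libraries exceeded the highest control library. GAS5 rose 1.23-fold with siRNA.1 (log2 fold change 0.30 ± 0.05, edgeR adjusted p = 6.52e-10) and 1.32-fold with siRNA.2 (0.40 ± 0.05, adjusted p = 2.3e-17). GAS5 RNA is a known NMD target and TOP transcript. Its own nested snoRNAs were not analysed here.

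SNHG1 had 20.6, 20.2 and 21.0 FPKM with control siRNA, 26.6, 24.7 and 26.3 with siRNA.1, and 25.0, 26.1 and 26.2 with siRNA.2. Control and knockdown libraries did not overlap. It rose by 0.30 ± 0.06 with siRNA.1 (edgeR adjusted p = 1.28e-06) and 0.31 ± 0.06 with siRNA.2 (adjusted p = 3.49e-07) on the log2 scale.

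ZFAS1, host of the SNORD12 family, had 11.1, 12.3 and 10.7 FPKM with control siRNA, 14.6, 14.7 and 14.7 with siRNA.1, and 13.4, 12.9 and 13.5 with siRNA.2. Both knockdown groups lay above control, with siRNA.1 above siRNA.2. Its log2 fold changes were 0.34 ± 0.06 with siRNA.1 (edgeR adjusted p = 9.86e-09) and 0.21 ± 0.05 with siRNA.2 (adjusted p = 0.000768). The difference between the siRNAs, −0.13 ± 0.05, was not called (adjusted p = 0.101), but it was called with library totals alone and when genes under 1 FPKM were left out (adjusted p = 0.0475 and 0.0492).

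SNHG32 had 18.9, 20.7 and 23.5 FPKM with control siRNA, 27.4, 23.1 and 28.3 with siRNA.1, and 26.5, 26.7 and 27.4 with siRNA.2. The lowest siRNA.1 library fell inside the control range. SNHG32 rose by 0.29 ± 0.08 (edgeR adjusted p = 0.000708) and 0.34 ± 0.07 (adjusted p = 4.42e-05) on the log2 scale.

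SNHG29 had 41.4, 44.4 and 42.9 FPKM with control siRNA, 49.7, 48.0 and 49.0 with siRNA.1, and 46.4, 50.4 and 49.1 with siRNA.2. The most abundant host thus showed a small but well separated change of 0.16 ± 0.04 (edgeR adjusted p = 0.000675) and 0.17 ± 0.04 (adjusted p = 0.000269) on the log2 scale.

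SNHG6 had 31.5, 36.1 and 39.7 FPKM with control siRNA, 44.1, 40.5 and 40.8 with siRNA.1, and 42.6, 43.5 and 43.9 with siRNA.2. It rose by 0.20 ± 0.07 (edgeR adjusted p = 0.0249) and 0.26 ± 0.07 (adjusted p = 0.00115) on the log2 scale, and its low first control library carried much of this. Without that library the values were 0.11 with siRNA.1 (adjusted p = 0.32) and 0.18 with siRNA.2 (adjusted p = 0.068). The siRNA.1 call was also lost without control replicate 2 (adjusted p = 0.0505), without siRNA.1 replicate 1 (adjusted p = 0.159) and in limma.

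Calls among the H/ACA hosts were all upward. Of 12 tested, 6 rose after siRNA.1 and 7 after siRNA.2, and none fell, with medians of 0.26 and 0.36. Over all genes, 15.0% rose and 15.2% fell with siRNA.1, and 15.8% rose and 15.1% fell with siRNA.2. The difference from these shares was not tested. SNHG4, host of SNORA74A, had 9.28, 8.86 and 7.68 FPKM with control siRNA, 10.2, 12.4 and 11.8 with siRNA.1, and 13.4, 11.0 and 11.3 with siRNA.2. No knockdown library reached down to the control range. SNHG4 rose by 0.39 ± 0.07 (edgeR adjusted p = 1.45e-06) and 0.46 ± 0.07 (adjusted p = 4.32e-09) on the log2 scale.

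SNHG11, host of SNORA60 and SNORA71E, had 2.10, 1.98 and 1.91 FPKM with control siRNA, 2.79, 2.67 and 2.76 with siRNA.1, and 3.02, 2.65 and 2.81 with siRNA.2. The groups were well apart at this low level, with changes of 0.43 ± 0.14 (edgeR adjusted p = 0.00825) and 0.49 ± 0.14 (adjusted p = 0.00155).

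SNHG8, host of SNORA24, had 2.95, 3.31 and 3.09 FPKM with control siRNA, 3.78, 4.13 and 3.82 with siRNA.1, and 3.78, 4.53 and 4.66 with siRNA.2. It rose by 0.30 ± 0.10 (edgeR adjusted p = 0.0101) and 0.46 ± 0.10 (adjusted p = 1.16e-05), and all knockdown libraries were above control. The siRNA.1 call was lost without control replicate 1 (0.26, adjusted p = 0.0541) or siRNA.1 replicate 2 (0.27, adjusted p = 0.0504).

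SNHG17, host of the SNORA71 family, rose from 3.42 to 3.69 FPKM with control siRNA to 3.92 to 4.68 with siRNA.1 (0.26 ± 0.07, edgeR adjusted p = 0.00211) and 4.31 to 4.39 with siRNA.2 (0.29 ± 0.07, adjusted p = 0.000466). SNHG7, host of SNORA17A and SNORA17B, rose from 8.09 to 9.87 FPKM to 10.2 to 11.6 (0.24 ± 0.07, adjusted p = 0.00385) and 10.6 to 12.2 (0.31 ± 0.07, adjusted p = 7.23e-05). SNHG3, host of SNORA73A and SNORA73B, rose from 12.5 to 12.7 FPKM to 13.6 to 16.1 (0.19 ± 0.07, adjusted p = 0.02) and 14.6 to 15.5 (0.23 ± 0.07, adjusted p = 0.00323). The groups did not overlap for these 3 hosts, but the siRNA.1 calls of SNHG7 and SNHG3 rested on single libraries. SNHG7 was not called without control replicate 1 (0.17, adjusted p = 0.088) or siRNA.1 replicate 1 (0.18, adjusted p = 0.0701), nor SNHG3 without control replicate 2 (0.18, adjusted p = 0.0569) or siRNA.1 replicate 2 (0.13, adjusted p = 0.216).

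Of the 4 Cajal body RNA hosts, SNHG20, host of SCARNA16, rose with both siRNAs. It had 1.49, 1.41 and 1.62 FPKM with control siRNA, 1.66, 2.39 and 2.40 with siRNA.1, and 2.34, 2.26 and 2.30 with siRNA.2. One siRNA.1 library lay just above the control range and the other 5 knockdown libraries far above it. The changes were 0.48 ± 0.13 (edgeR adjusted p = 0.002) and 0.59 ± 0.13 (adjusted p = 4.72e-05).

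Some hosts passed the test with a single siRNA. SNHG12, whose span holds both snoRNA kinds, had 6.92, 6.83 and 6.22 FPKM with control siRNA, 8.08, 7.87 and 8.42 with siRNA.1, and 6.75, 7.74 and 7.10 with siRNA.2. It rose with siRNA.1 (0.26 ± 0.09, edgeR adjusted p = 0.012), while siRNA.2 overlapped control (0.10 ± 0.09, adjusted p = 0.427). The siRNA.1 call was lost without control replicate 3 (0.21, adjusted p = 0.0942) or siRNA.1 replicate 3 (0.23, adjusted p = 0.0662).

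SNHG16 had 10.8, 11.4 and 9.81 FPKM with control siRNA, 12.3, 12.8 and 12.6 with siRNA.1, and 11.1, 11.2 and 11.3 with siRNA.2. It rose with siRNA.1 (0.21 ± 0.07, edgeR adjusted p = 0.00618), while siRNA.2 lay inside the control range (0.06 ± 0.07, adjusted p = 0.546). Without control replicate 3 the siRNA.1 value was 0.15 (adjusted p = 0.117). The siRNAs did not differ by the test of the difference itself for SNHG12 (−0.16 ± 0.09, adjusted p = 0.266) or SNHG16 (−0.15 ± 0.06, adjusted p = 0.124).

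SNHG19 had 14.7, 20.6 and 16.8 FPKM with control siRNA, 20.1, 22.4 and 18.9 with siRNA.1, and 26.6, 27.7 and 29.4 with siRNA.2. The siRNA.1 libraries overlapped control and the siRNA.2 libraries lay above all 6 others. SNHG19 rose with siRNA.2 (0.67 ± 0.16, edgeR adjusted p = 0.000176) and was not called with siRNA.1 (0.21 ± 0.17, adjusted p = 0.397).

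SNHG10, host of SCARNA13, had 1.43, 1.72 and 1.88 FPKM with control siRNA, 2.01, 1.90 and 1.58 with siRNA.1, and 2.15, 2.26 and 2.28 with siRNA.2. It rose with siRNA.2 (0.40 ± 0.14, edgeR adjusted p = 0.0168), not called with siRNA.1 (0.09 ± 0.14, adjusted p = 0.694), and the call was lost without control replicate 1 (0.30, adjusted p = 0.148), without siRNA.2 replicate 3 (0.37, adjusted p = 0.0624) and in limma. The difference between the siRNAs was 0.30 ± 0.14 (adjusted p = 0.154).

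EPB41L4A-AS1, host of SNORA13 and antisense to EPB41L4A, had 1.84, 2.04 and 2.29 FPKM with control siRNA, 2.15, 1.38 and 2.39 with siRNA.1, and 2.74, 2.76 and 2.78 with siRNA.2. It rose with siRNA.2 (0.41 ± 0.15, edgeR adjusted p = 0.0197) and was not called with siRNA.1 (−0.08 ± 0.15, adjusted p = 0.771). The siRNA.2 call was lost in DESeq2 (adjusted p = 0.0714) and limma, and without control replicate 1 (0.34, adjusted p = 0.113), control replicate 2 (0.40, adjusted p = 0.0527) or siRNA.2 replicate 3 (0.40, adjusted p = 0.058).

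SNHG14 was the member that fell. It carries the SNORD115 and SNORD116 arrays of the imprinted Prader-Willi region, runs antisense to UBE3A and had 246, 224 and 251 counts with control siRNA, 201, 165 and 201 with siRNA.1, and 345, 235 and 315 with siRNA.2. Its level was 0.11 to 0.13 FPKM with control siRNA and 0.09 in each siRNA.1 library. It fell with siRNA.1 (−0.43 ± 0.13, edgeR adjusted p = 0.00352) and not with siRNA.2 (−0.04 ± 0.12, adjusted p = 0.871), and limma on FPKM, which the table gives to 2 decimals, did not call the fall (adjusted p = 0.709). UBE3A, an E3 ubiquitin ligase gene that SNHG14 overlaps on the other strand, rose with both siRNAs (0.27 ± 0.05, adjusted p = 1.55e-07, and 0.28 ± 0.05, adjusted p = 2.61e-08).

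Comparing the siRNAs directly, 3 of 30 members were higher with siRNA.2 than with siRNA.1, where 6.10% of all genes were, and none was lower, where 6.06% of all genes were. The edgeR adjusted p was 0.0104 for EPB41L4A-AS1 (0.49 ± 0.15), 0.0179 for SNHG14 (0.39 ± 0.12) and 0.0283 for SNHG19 (0.47 ± 0.16). At an unadjusted p below 0.05, 6 were higher and 2 lower, and DESeq2 called 2 higher and 0 lower. The members' median difference was 0.11 on the log2 scale, beside 0.0043 over all genes. These calls rested on few libraries. Without siRNA.1 replicate 2 EPB41L4A-AS1 was not called (0.29, adjusted p = 0.297), nor was SNHG14 (0.36, adjusted p = 0.0779). SNHG14 was not called either without siRNA.2 replicate 1 (0.26, adjusted p = 0.298). SNHG19 lost its call without siRNA.1 replicate 1 (0.46, adjusted p = 0.0746), siRNA.1 replicate 3 (0.41, adjusted p = 0.138), siRNA.2 replicate 2 (0.47, adjusted p = 0.0716) or siRNA.2 replicate 3 (0.42, adjusted p = 0.142). GAS5 (0.10 ± 0.04, adjusted p = 0.143) was called higher with siRNA.2 without siRNA.1 replicate 1 (0.15, adjusted p = 0.0295) or siRNA.2 replicate 1 (0.15, adjusted p = 0.0176).

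Several expressed hosts did not pass the test. SNHG15, host of SNORA9, had 14.5, 15.9 and 15.1 FPKM with control siRNA, 15.4, 15.4 and 14.9 with siRNA.1, and 15.9, 16.5 and 16.4 with siRNA.2. It was the most abundant host without a call, at −0.02 ± 0.07 (edgeR adjusted p = 0.852) and 0.09 ± 0.07 (adjusted p = 0.333). DANCR, host of SNORA26, had 2.41, 2.23 and 2.42 FPKM with control siRNA, 2.34, 1.69 and 2.04 with siRNA.1, and 2.04, 2.64 and 2.54 with siRNA.2. Its groups overlapped, with −0.24 ± 0.10 (adjusted p = 0.0549) and 0.02 ± 0.10 (adjusted p = 0.912), but leaving out control replicate 2 (−0.28, adjusted p = 0.0466) or siRNA.1 replicate 1 (−0.36, adjusted p = 0.00739) gave a lower call with siRNA.1. DANCR was also called higher with siRNA.2 than with siRNA.1 without siRNA.1 replicate 1 (0.38, adjusted p = 0.00886) or siRNA.2 replicate 1 (0.38, adjusted p = 0.00768).

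SNHG5, host of SNORD50B, had 1.02, 1.23 and 0.89 FPKM with control siRNA, 1.42, 1.10 and 1.01 with siRNA.1, and 1.27, 1.42 and 1.15 with siRNA.2. It was at 0.15 ± 0.12 (edgeR adjusted p = 0.396) and 0.28 ± 0.12 (adjusted p = 0.0589), and it was called higher with siRNA.2 without control replicate 2 (0.41, adjusted p = 0.0118) or siRNA.2 replicate 3 (0.35, adjusted p = 0.036). The remaining hosts had few counts. SNHG9, beside RPS2, had 3 to 12 counts with control siRNA and 8 to 20 with the PARylator siRNAs (0.63 ± 0.60 and 0.83 ± 0.58). SNHG21 (0.18 ± 0.25 and 0.30 ± 0.24) and SNHG25 (−0.01 ± 0.42 and 0.42 ± 0.40) spread widely among replicates. Standard errors were 0.63 to 0.77 for SNHG22, SNHG27 and SNHG31, so a change of the size seen in the other hosts was not detectable at this depth. SNHG18 had 0 to 6 counts and SNHG28 0 to 5 counts in each library.

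The size of the change was set beside the abundance and length of the hosts. Across the 26 hosts of at least 1 FPKM, Pearson's r between the log2 control level and the log2 fold change was −0.06 for siRNA.1 and −0.33 for siRNA.2 (Spearman −0.04 and −0.33). With exonic length r was −0.12 and −0.50 (Spearman −0.01 and −0.39). These are descriptions across genes of the same libraries, and control levels enter both axes of the first pair.

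The snoRNAs themselves had few counts in these poly(A)+ libraries. The table held 140 named snoRNA and scaRNA rows inside 30 members, with 137 distinct names, and 84 of the rows lay in SNHG14. Outside SNHG14, 13 of 56 rows had any count and 4 had at least 100 counts over the 9 libraries. Of the 13 lying wholly outside host exons 10 had counts, against 3 of 43 that overlapped a host exon, where a fragment also matches the host. Mature snoRNAs carry no poly(A) tail, and the parts of RNA selection and of read assignment in these zeros were not tested. These few counts can come from unspliced host RNA as well as from the snoRNA, which cannot be told apart here.

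Of these 4, the box C/D snoRNAs SNORD93 of SNHG26 and SNORD12B of ZFAS1 are shown from the GENCODE 44 transcripts at GRCh38 positions, as DNA letters, 5′ to 3′. Capitals mark box C (ATGATGA or GTGATGA, searched in the first 30 bases) and box D (CTGA, the last one in the last 30 bases), the motifs bound by the snoRNP proteins, on the RNA's own strand. Of 314 SNORD transcripts 64.3% held this box C and 90.4% this box D. SNORD93 had no exact match to box C.
SNORD93 (chr7:22856613-22856686, + strand): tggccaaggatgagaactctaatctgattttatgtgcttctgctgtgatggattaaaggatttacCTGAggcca
SNORD12B (chr20:49280319-49280409, + strand): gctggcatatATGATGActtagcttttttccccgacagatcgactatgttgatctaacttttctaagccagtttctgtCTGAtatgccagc

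SNORD93 had 15, 11 and 29 counts with control siRNA, 21, 34 and 33 with siRNA.1, and 45, 31 and 18 with siRNA.2. SNORD12B had 4, 5 and 14 counts, 11, 22 and 6, and 17, 18 and 18. Both overlapped between control and siRNA.1. The log2 fold changes of SNORD93 were 0.62 ± 0.38 and 0.46 ± 0.38 (edgeR adjusted p = 0.232 and 0.41) and those of SNORD12B 0.73 ± 0.58 and 0.88 ± 0.57 (adjusted p = 0.392 and 0.265), so neither was called. SNORA71B of SNHG17 (0.58 ± 0.40 and 0.64 ± 0.39) and SNORA73B of SNHG3 (0.54 ± 0.42 and 0.08 ± 0.42) were not called either. Standard errors near 0.4 could not show a change of the hosts' size.

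Many hosts sit beside or across a protein-coding gene. The start of a protein-coding gene lay within 1000 bases on the other strand for 8 members, 17 members overlapped one on the other strand and 5 on the same strand. The strand setting of the counting was not given in the sources used here, so reads of overlapping partners may be split uncertainly. Of the 12 tested members that overlap no named protein-coding gene, 6 rose with each siRNA. Of the 18 that overlap one, 11 rose and 1 fell with siRNA.1, and 12 rose with siRNA.2. Over all genes, 15.0% rose and 15.2% fell with siRNA.1, and 15.8% rose and 15.1% fell with siRNA.2.

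Hosts and their divergent neighbours did not always move alike. SLC3A2, an amino acid transporter subunit gene that starts 51 bases from SNHG1, had 64.4 to 68.5 FPKM with control siRNA, 90.0 to 97.0 after siRNA.1, and 87.9 to 93.9 after siRNA.2. It rose as SNHG1 did (0.47 ± 0.04 and 0.43 ± 0.04, edgeR adjusted p = 1.05e-31 and 2.34e-27). ZNFX1, a helicase-like antiviral factor gene beside ZFAS1, rose by 0.58 ± 0.05 and 0.25 ± 0.05 (adjusted p = 1.5e-34 and 6.75e-07), with the larger value for siRNA.1 as for ZFAS1.

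ZBTB37, a zinc finger gene divergent from GAS5, fell with siRNA.1 (−0.37 ± 0.10, edgeR adjusted p = 0.000852) and was at −0.03 ± 0.09 with siRNA.2 (adjusted p = 0.886), where GAS5 rose. TRAF7, a ubiquitin ligase gene beside SNHG19, fell by 0.21 and 0.26 on the log2 scale (adjusted p = 0.00411 and 0.000309). RPS2, a ribosomal protein gene beside SNHG9, was the most abundant neighbour at 441 to 485 FPKM with control siRNA, 354 to 400 after siRNA.1, and 374 to 403 after siRNA.2. RPS2 fell by 0.36 and 0.28 (adjusted p = 1.7e-23 and 2.51e-14). Changes of hosts with a shared start region therefore included both the same and the opposite sign as the neighbour. On the same strand, RCC1, whose span holds SNHG3, was at −0.08 ± 0.05 and −0.06 ± 0.05 (adjusted p = 0.27 and 0.389). SEC14L1, which overlaps SNHG20, was at −0.15 ± 0.06 and −0.44 ± 0.06 (adjusted p = 0.055 and 6.13e-12). SNHG3 and SNHG20 were thus called higher where these partners were not. Overlapping partners on the other strand moved both ways. SIL1, which spans SNHG4, rose by 0.38 and 0.32 (adjusted p = 0.000777 and 0.00593), beside 0.39 and 0.46 for SNHG4. GLRX5 at SNHG10 rose by 0.16 and 0.18 (adjusted p = 0.038 and 0.0182). DIPK1B at SNHG7 was at 0.35 and 0.23 (adjusted p = 0.00568 and 0.0899). TRNAU1AP, overlapping SNHG12 by 8 bases, was at −0.57 and −0.63 (adjusted p = 7.11e-06 and 3.64e-07).

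Genes for the proteins that build snoRNPs were called in 1 direction. Of 20 listed genes for snoRNP core and assembly, 10 rose after siRNA.1 and 14 after siRNA.2, and none fell. Their medians were 0.22 and 0.30. Over all genes, 15.0% rose and 15.2% fell with siRNA.1, and 15.8% rose and 15.1% fell with siRNA.2. NOLC1, the nucleolar chaperone Nopp140 that binds snoRNPs, rose by 1.00 ± 0.04 and 0.90 ± 0.04 (edgeR adjusted p = 9.69e-131 and 9.72e-107). DKC1, the pseudouridine synthase of H/ACA snoRNPs, rose by 0.44 ± 0.05 and 0.43 ± 0.05 (adjusted p = 1.68e-20 and 2e-19). SNU13, which binds the box C/D fold, rose by 0.48 ± 0.05 and 0.35 ± 0.05 (adjusted p = 5.75e-17 and 1.65e-09).

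Protein-coding snoRNA hosts outside the ribosome were mixed. Of 35, 11 (31.4%) rose and 10 (28.6%) fell with siRNA.1 and 13 (37.1%) rose and 4 (11.4%) fell with siRNA.2. The medians were 0.02 and 0.07. Of all genes, 15.0% rose and 15.2% fell with siRNA.1, and 15.8% rose and 15.1% fell with siRNA.2. WDR43, a ribosome biogenesis factor gene, rose (0.40 ± 0.05 and 0.43 ± 0.05, edgeR adjusted p = 2.99e-17 and 1.81e-19), as did DKC1, while AP1G1, an adaptor protein gene of vesicle transport, fell by 0.54 and 0.70 (adjusted p = 1.5e-23 and 4.85e-40). Ribosomal protein genes, which share the TOP feature and host many snoRNAs, counted 9 higher and 26 lower of 85 with siRNA.1 and 25 higher and 15 lower with siRNA.2, with medians of −0.05 and 0.02. RPL26L1, a paralog of RPL26, rose by 0.67 ± 0.10 and 0.82 ± 0.09 (adjusted p = 4.74e-11 and 1.28e-16), and FAU rose by 0.29 ± 0.06 and 0.33 ± 0.06 (adjusted p = 1.93e-06 and 4.12e-08). RPS2, described above beside SNHG9, fell by 0.36 and 0.28 (edgeR adjusted p = 1.7e-23 and 2.51e-14). A share of 56.7% of tested noncoding hosts rose with siRNA.1 beside 31.4% of these protein-coding hosts and 10.6% of ribosomal protein genes, and 60.0% beside 37.1% and 29.4% with siRNA.2. These shares were set side by side and their difference was not tested. By the RefSeq start alone, hosts with a run within 10 bases rose in 11 of 16 (1 fell) with siRNA.1 and 10 of 16 with siRNA.2. Hosts without one rose in 5 of 10 and 7 of 10. The shares of all genes that rose, given above, were 15.0% and 15.8%, and those that fell 15.2% and 15.1%. GAS5 counted as without a run here, although its canonical transcript begins with one. SNHG29 counted through a run upstream of its RefSeq start. SNHG6, SNHG9, SNHG15 and SNHG25 had no RefSeq entry and were left out, so this split does not separate TOP hosts from others.

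Factors of NMD changed in both directions. Of 24, 9 (37.5%) rose and 3 (12.5%) fell with siRNA.1, and 11 (45.8%) rose and 4 (16.7%) fell with siRNA.2. The medians were 0.07 and 0.15, and the shares that fell were near those of all genes (15.2% and 15.1%). UPF3B, which links UPF2 to the exon junction complex, fell by 0.52 and 0.51 (edgeR adjusted p = 5.04e-11 and 6.31e-11). PNRC2, a decapping adaptor, rose by 0.40 ± 0.06 and 0.38 ± 0.05 (adjusted p = 1.52e-11 and 4.58e-11), and RNPS1, a junction complex protein, by 0.26 ± 0.05 and 0.29 ± 0.05 (adjusted p = 1.17e-06 and 4.43e-08). The core helicase UPF1 was at 0.07 ± 0.05 and 0.09 ± 0.05 (adjusted p = 0.28 and 0.103).

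Of 18 listed genes with NMD-sensitive transcripts, among them the pseudogene RP9P, 9 rose and 3 (16.7%) fell with each siRNA. The medians were 0.11 and 0.16. Over all genes, 15.0% rose with siRNA.1 and 15.8% with siRNA.2. The share of the list that fell was near that of all genes (15.2% and 15.1%). RP9P counted among the listed genes that rose, at 0.43 ± 0.14 and 0.44 ± 0.14 (edgeR adjusted p = 0.00754 and 0.00541). ATF3 rose by 1.31 ± 0.08 and 1.00 ± 0.08 (edgeR adjusted p = 1.06e-52 and 3.73e-31), and DDIT3 by 1.23 ± 0.13 and 1.11 ± 0.13 (adjusted p = 1.29e-18 and 9.55e-16), both transcription factors of the integrated stress response. UPP1, uridine phosphorylase, rose by 0.94 ± 0.05 and 0.57 ± 0.05 (adjusted p = 3.92e-88 and 1.63e-32). Several of these genes are also stress-response targets, so their counts do not isolate decay.

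The list of mTORC1 and TOP translation control, the pathway that regulates translation of TOP messages, had 19 tested genes. With siRNA.1, 5 (26.3%) were higher and 4 (21.1%) lower, and with siRNA.2 7 (36.8%) were higher and 5 (26.3%) lower. Of all genes, 15.0% were higher and 15.2% lower with siRNA.1, and 15.8% higher and 15.1% lower with siRNA.2. The list's medians were 0.00048 and 0.02. LARP1, which binds the TOP cap, rose by 0.37 ± 0.04 and 0.40 ± 0.04 (edgeR adjusted p = 4.09e-18 and 1.52e-20). RRAGC, a GTPase that signals amino acids to mTORC1, fell by 0.31 and 0.79 (adjusted p = 0.0085 and 6.96e-14), and EIF4EBP2, a translation repressor, by 0.38 and 0.29 (adjusted p = 8.97e-14 and 2.54e-08).

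Other lncRNAs are given for comparison. Of 356 tested LINC lncRNAs, 46 (12.9%) rose and 15 (4.21%) fell with siRNA.1, and 44 (12.4%) rose and 17 (4.78%) fell with siRNA.2. Their medians of 0.17 for each lie between those of all genes and those of the hosts. Of 4330 tested annotated lncRNAs, 285 (6.58%) rose and 137 (3.16%) fell with siRNA.1, and 269 (6.21%) rose and 137 (3.16%) fell with siRNA.2. The medians of the annotated lncRNAs were 0.09 and 0.06. Of all genes, 15.0% rose and 15.2% fell with siRNA.1, and 15.8% rose and 15.1% fell with siRNA.2.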

How the data were processed

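Poly(A)+ RNA-seq of 9 TE13 libraries was analysed. The authors deposited raw counts per gene and FPKM values on GRCh38, made with STAR and featureCounts after FastQC; versions, annotation release and strand setting are not given in the sources used here. Counts were fitted with edgeR 4.0.16 in R 4.3.3 (TMM, quasi-likelihood test, 1 fit of the 3 groups) over the 21395 genes averaging 0.1 FPKM or more, and p-values were adjusted by Benjamini-Hochberg over all of them and called below 0.05. The SE is the absolute log2 fold change over the square root of F. The fit was tested on simulated data. Alternatives used limma 3.58.1 on log2(FPKM + 0.1) and other pseudocounts, DESeq2 1.42.0, other scalings and filters, and leaving out each library.

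Libraries held 15337917 to 22559998 counts. The 32 members all matched GENCODE 44 by identifier, 19 at the same position. Members and gene lists were chosen with earlier results of these data known. Every member was described, those called with both siRNAs first. Of each other list, up to 3 genes with the largest mean change at 1 FPKM or more were named; UPF1, RP9P, UBE3A and the flanking genes were named for their role or position. No set test was run.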

Additional observations from a re-analysis of the deposited data

Results flagged for a closer look

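For 3 snoRNA host lncRNAs the effect against control differed between the siRNAs by edgeR's test of siRNA.2 against siRNA.1. The difference was 0.49 on the log2 scale for EPB41L4A-AS1 (SE 0.15, adjusted p = 0.0104), the host of SNORA13, which rose with siRNA.2 and was not called with siRNA.1. It was 0.39 for SNHG14 (SE 0.12, adjusted p = 0.0179), the host of the SNORD115 and SNORD116 arrays, which fell with siRNA.1 and was not called with siRNA.2. It was 0.47 for SNHG19 (SE 0.16, adjusted p = 0.0283), the host of SNORD60, whose 3 siRNA.2 libraries lay above all others. Each call was lost in limma, and DESeq2 did not call SNHG19 (adjusted p = 0.0542).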

How the results depend on the processing

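No call of a member against control changed sign in any alternative fit. Members called with 1 siRNA could change sign with the other, where they were not called, as EPB41L4A-AS1 did with siRNA.1 (−0.24 to 0.12). Over the 30 tested members, the sign differed from the reported one in 15, 6 and 25 of 626 fits, none of them with a call, for siRNA.1, siRNA.2 and siRNA.2 against siRNA.1. A further minimum of 1 for the size of the log2 fold change left 0 members higher in each comparison and 0 lower with siRNA.1. The fall of SNHG14 with siRNA.1 was the 1 lower call, and limma at each of 3 pseudocounts called 0, as did the 1 FPKM filter, which removed SNHG14 from the test. Limma also called 0 members higher in siRNA.2 against siRNA.1, while library totals alone and the 1 FPKM filter each added 1 lower member there, ZFAS1. The median with siRNA.1 was 0.28 with library totals and 0.23 with limma on log2(FPKM + 1), which gave 0.28 with siRNA.2 and 0.051 for siRNA.2 against siRNA.1. Leaving out 1 library gave 14 to 17 members higher and 1 to 2 lower for siRNA.1, 15 to 18 higher for siRNA.2, and 1 to 4 higher for siRNA.2 against siRNA.1, with medians of 0.23 to 0.29, 0.29 to 0.37 and 0.08 to 0.12. Same-numbered libraries did not deviate together (correlations −0.194 to 0.107), and the fit with the replicate number as a block called 17 higher and 1 lower for siRNA.1, 18 and 0 for siRNA.2, and 3 and 0 for siRNA.2 against siRNA.1. SNHG22, SNHG27 and SNHG31 had too few counts for changes of this size. Causes of these shifts were not tested.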
